A study of Homo sapiens with 6 samples.

Results

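The genes described here encode the machinery that makes and uses small silencing RNAs, and they were followed in T24 bladder cancer cells with and without silencing of RBM3. The 10 members were listed by their symbols: DROSHA and DGCR8 of nuclear processing, XPO5 of nuclear export, DICER1 and TARBP2 of cytoplasmic cutting, AGO1, AGO2 and AGO3 of target binding, and TNRC6A and TNRC6B of repression. Each symbol matched a single row among the 63677 gene identifiers of the count table, and all 10 members were among the 15099 genes with enough counts to be tested. AGO4 and TNRC6C, which complete the Argonaute and GW182 families but are not members, are given beside them.

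T24 is an established human cell line from a grade 3 bladder carcinoma. The control group received a negative control siRNA and the siRBM3 group a pair of siRNAs against RBM3, an RNA-binding protein of the cold-shock response, in both cases at 25 nM with Lipofectamine in serum-free medium for 4.5 h, followed by recovery overnight in full medium. Each group holds 3 libraries, numbered 1, 3 and 5 for control and 3, 4 and 5 for siRBM3. Libraries were strand-specific, made from polyadenylated RNA and read in single reads of 75 bp. Every library thus came from cells loaded with a synthetic small RNA, and cells without any siRNA are not among the samples, so a response common to both siRNAs cannot be seen in this comparison. Polyadenylated RNA holds the messages of the machinery and the host transcripts of microRNAs, but not the mature microRNAs. The labels do not say that the libraries of a group came from separate cultures, and p-values measure the spread between these libraries, which may be technical.

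A microRNA is cut from its long primary transcript in the nucleus by the Microprocessor, in which DGCR8 recognises the hairpin and DROSHA cuts its base. Exportin 5, the product of XPO5, carries the hairpin to the cytoplasm, where DICER1 with its partner TRBP, the product of TARBP2, cuts off the loop and leaves a short duplex. One strand is loaded into an Argonaute protein, and the GW182 proteins encoded by the TNRC6 genes bind Argonaute and recruit the enzymes that shorten the poly(A) tail of the target. Of the Argonautes, AGO2 is the one best known for cutting a fully matched target, which is how a transfected siRNA acts, and siRNA duplexes enter the pathway after the step of DICER1. RBM3 has been described as a protein that affects the making of microRNAs, which is the reason for looking at these genes after its silencing.

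Library totals ranged from 23603992 to 45098612 counts, and each member had between 494 and 3464 counts in every library, so counting error was small. In bulk RNA, less message per cell and fewer cells with the message cannot be told apart. Levels are given as CPM, the counts of a gene divided by the TMM-scaled library total and brought to a common library size. The targeted gene was lower in the siRBM3 libraries: RBM3 stood at 225, 368 and 301 CPM in control and at 54.1, 90.1 and 58.4 CPM in siRBM3, a log2 fold change of -2.14 with a standard error (SE) of 0.24. Its adjusted p was 0.0822 by the quasi-likelihood test of edgeR with Benjamini-Hochberg adjustment (FDR), and 3.87e-14 by DESeq2. SiRBM3 replicate 3 was the deepest library and had 9.40% mitochondrial counts, against 1.63% to 4.15% in the other libraries. The epithelial keratins KRT7, KRT8, KRT18 and KRT19 were present in all libraries, whereas KRT5, KRT20, UPK1A, UPK1B, UPK3A and CDH1, listed as urothelial or epithelial markers, were each below 1 CPM. The summed level of the 14 markers of this list was 5222 to 6018 CPM in control and 4357 to 4465 CPM in siRBM3. Most of this sum was KRT7 (log2 fold change -0.38, SE 0.09) and KRT8 (-0.37, SE 0.14), whereas GATA3 at 0.37 (SE 0.15), EPCAM at 0.24 (SE 0.17) and UPK2 at 0.34 (SE 0.26) had positive values. The 4 leukocyte markers summed to 2.22 to 3.02 CPM in control and 2.17 to 2.61 CPM in siRBM3, nearly all from CD14. The endothelial markers summed to 27.9 to 33.8 CPM in control and 33.8 to 40.8 CPM in siRBM3, nearly all from CDH5, with VWF and KDR below 1 CPM. The 6 fibroblast markers summed to 9.75 to 10.1 CPM in control and 10.9 to 12.5 CPM in siRBM3, mostly from COL1A1, with DCN and LUM at or near 0 and COL3A1 higher in every siRBM3 library (0.97, SE 0.42). The part of these markers in the results below was not tested.

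Across the members, the messages of XPO5 and AGO1 were lower and those of DICER1, AGO3 and TNRC6B higher in the siRBM3 libraries at the level of an unadjusted p, while DROSHA, DGCR8, TARBP2 and AGO2 showed small differences with intervals on both sides of 0. None of the 10 members passed the call, which was a fold change of at least 1.5 with an FDR below 0.01. The same was true of all tested genes, of which 0 (0%) were called by edgeR, although 51 higher and 32 lower genes had an FDR below 0.1. DESeq2, with the same thresholds, called 159 of 13068 genes (1.22%) and none of the members. At an unadjusted p under 0.05 in the edgeR test, 3 members stood higher and 2 lower, where 6.56% of all tested genes were higher and 6.58% lower. With 1 library left out, 1 to 4 members stood higher and 0 to 2 lower at this level. Without siRBM3 replicate 3 these were 1 and 1, beside 672 and 826 of all genes. Without siRBM3 replicate 5 they were 1 and 0, beside 834 and 770 of all genes. Without control replicate 3 they were 4 and 1, beside 918 and 814 of all genes. Without siRBM3 replicate 4 they were also 4 and 1, beside 808 and 707 of all genes. In 2 members every siRBM3 library was above every control library, a pattern seen in 9.98% of all tested genes, and in 2 every siRBM3 library was below every control library, as in 9.93% of all tested genes. The median log2 fold change of the members was 0.04, with values from -0.37 to 0.51, and that of all tested genes was -0.01. With 3 libraries against 3, p = 0.1 is the smallest that exact permutation (two-sided) can give for 1 gene.

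**Figure D1:**
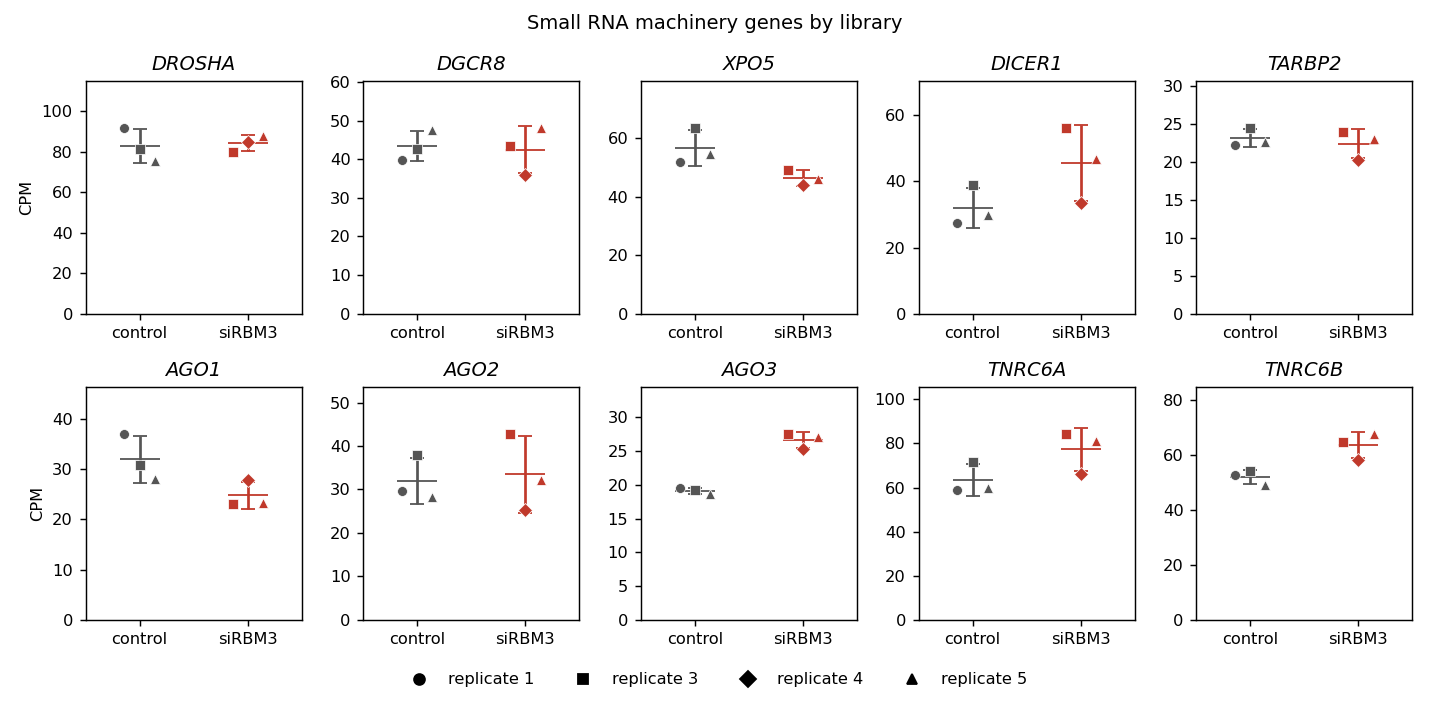
Level of each member in CPM (vertical axis, starting at 0, a separate scale for each gene) in the control and siRBM3 libraries, with a symbol for each replicate number and bars for the mean ± SD of 3 libraries. The AGO3 and TNRC6B points of siRBM3 lie above all control points, those of XPO5 and AGO1 lie below them, and the DICER1, TNRC6A and AGO2 points overlap between the groups.

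DROSHA, the nuclease of the Microprocessor, lies on chromosome 5 at 31400601-31532303 (GRCh37, minus strand). In the order of the replicate numbers, it was at 91.9, 81.4 and 75.4 CPM in control and at 80.0, 84.6 and 87.9 CPM in siRBM3, an order kept below. The siRBM3 values all fell inside the control range. The log2 fold change was 0.02 (SE 0.10, 95% interval -0.22 to 0.26), and the FDR by edgeR was 0.95. The sign of this value turned negative when libraries were scaled by their total only.

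DGCR8, which binds the hairpin for DROSHA, lies on chromosome 22 at 20067744-20099400 (GRCh37, plus strand). It was at 39.9, 42.7 and 47.7 CPM in control and at 43.4, 35.9 and 48.2 CPM in siRBM3. The lowest and the highest library were both siRBM3, and the groups overlapped, with a log2 fold change of -0.03 (SE 0.13, 95% interval -0.34 to 0.28) and an FDR by edgeR of 0.944. The DGCR8 message itself carries a pair of annotated hairpins in its exons, MIR3618 and MIR1306, and cutting of this message by the Microprocessor is a known form of feedback. The rows of both hairpins held 0 counts in all 6 libraries. How reads shared by overlapping genes of the same strand were counted was not given, so nothing about the cutting of this message can be read from these rows. The exon overlap between DGCR8 and these hairpins was 2.36% of its exon length, and a further 7.21% lay opposite to genes of the other strand, which were TRMT2A, reaching its last bases only, and ENSG00000243762, with 10 to 26 counts in a library.

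XPO5, the export receptor for hairpin precursors, lies on chromosome 6 at 43490072-43543775 (GRCh37, minus strand). Its level was 51.8, 63.5 and 54.4 CPM in control and 49.2, 43.8 and 46.0 CPM in siRBM3. All siRBM3 libraries were below all control libraries, with the closest pair at 49.2 and 51.8 CPM. The mean went from 56.6 ± 6.15 (SD, n = 3) to 46.3 ± 2.70 CPM, a log2 fold change of -0.29 (SE 0.11, 95% interval -0.55 to -0.03), with an unadjusted p of 0.0322 and an FDR of 0.329 by edgeR. Leaving out 1 library gave values from -0.35 to -0.20, the latter without control replicate 3. Of the exon length of XPO5, 4.10% lies opposite to POLR1C, which was at 19.1 to 24.3 CPM with a log2 fold change of -0.11 (SE 0.13).

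DICER1, the nuclease that cuts precursors in the cytoplasm, lies on chromosome 14 at 95552565-95624347 (GRCh37, minus strand) and had the largest fold change of the members by point estimate. It was at 27.4, 38.8 and 29.8 CPM in control and at 56.3, 33.5 and 46.9 CPM in siRBM3. The groups overlapped, since siRBM3 replicate 4 was below control replicate 3. The mean was 32.0 ± 6.05 CPM (SD, n = 3) in control and 45.5 ± 11.5 CPM in siRBM3, and the fitted fold change was 1.43 (95% interval 1.03 to 1.98), or 0.51 on the log2 scale with an SE of 0.21. The unadjusted p by edgeR was 0.0379 and the FDR 0.347, and the exact two-sided permutation test of the CPM gave p = 0.2. Without siRBM3 replicate 3, the library with the highest mitochondrial share, the log2 fold change was 0.33 (SE 0.20) with an unadjusted edgeR p of 0.141. Without siRBM3 replicate 4 it was 0.69.

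DICER1 is itself a known target of microRNAs that it helps to make, and its message carries stretches complementary to the seeds of let-7 and of miR-103 and miR-107. These sequences are shown because they tie the enzyme to products of its own pathway. Mature microRNAs from RefSeq (GRCh38.p14) are written 5′ to 3′, with the seed at bases 2 to 8 in capitals. The let-7 and miR-98 sequences share GAGGUAG, and the miR-103 and miR-107 sequences share GCAGCAU.
hsa-let-7a-5p: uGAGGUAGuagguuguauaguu
hsa-let-7g-5p: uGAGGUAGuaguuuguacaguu
hsa-miR-98-5p: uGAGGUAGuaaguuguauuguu
hsa-miR-103a-3p: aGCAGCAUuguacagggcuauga
hsa-miR-107: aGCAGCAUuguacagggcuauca

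The complements of these seeds in a message are CTACCTC for let-7 and ATGCTGC for miR-103 and miR-107, and they were searched on the strand of the transcript only, where a microRNA pairs, in the protein-coding transcript of each gene with the longest 3′ UTR in GENCODE v44 mapped to GRCh37. In the coding sequence of DICER1 the let-7 complement occurred 4 times. The windows below run in the direction of the transcript on the minus strand, with the complement in capitals.
chr14:95574220-95574244: gcatactgtgttCTACCTCttaatg
chr14:95570080-95570104: ccgtgcaaccaaCTACCTCatattc
chr14:95569972-95569996: atgctaacaaatCTACCTCagatgg
chr14:95560438-95560462: tgcgattttggaCTACCTCataacc
In the 3′ UTR of DICER1 the miR-103 and miR-107 complement occurred 5 times, and it occurred once more in the coding sequence.
chr14:95555789-95555813: cacacctaaaatATGCTGCagattt
chr14:95555188-95555212: atgcttcgtggaATGCTGCatttat
chr14:95553984-95554008: gcagtcctaactATGCTGCgtttta
chr14:95552713-95552737: atttaccatcacATGCTGCagctgt
chr14:95552661-95552685: catacagtaatcATGCTGCagaaat

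Among 1454 genes with a 3′ UTR of about the length of that of DICER1 (4270 bases), 27.5% held the miR-103 and miR-107 complement and 0.206% held it at least 5 times. Among 400 genes of similar coding length, 33.8% held the let-7 complement in the coding sequence and 0.5% held it at least 4 times. No let-7 complement lay in the 3′ UTR of DICER1. In all, 7 of the 10 members held at least 1 of these complements in the 3′ UTR or the coding sequence. The share of all tested genes holding any of them in either region was not counted. The shares that follow are each for a single complement in a single region, so they cannot be set against this count. Over all 12094 tested genes with a 3′ UTR, 11.8% held the let-7 complement and 15.1% the miR-103 and miR-107 complement there, and 13.4% held the let-7 complement in the coding sequence. Among genes with 3′ UTRs as long as those of AGO1, AGO2, AGO3 and TNRC6B, 48.9% to 51.3% held the let-7 complement and 56.2% to 66.7% the other. DROSHA, DGCR8 and TNRC6A held none, which says only that these letters are not in the windows searched. The long 3′ UTRs of AGO1 and AGO3 held 1 let-7 complement each, with 3 and 1 complements of miR-103 and miR-107, and that of TNRC6B held 3 of the latter. AGO2 held 2 let-7 complements and 5 of miR-103 and miR-107 in its 3′ UTR of 11888 bases, a count of the latter reached by 0.709% of 141 genes of similar UTR length. Each set of similar UTR length includes the gene itself, and AGO2 alone made up this share. A complement is a description of the sequence, and binding was not measured.

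TARBP2, whose product TRBP holds DICER1 and the duplex, lies on chromosome 12 at 53894705-53900215 (GRCh37, plus strand). It was the most even of the genes of precursor cutting, at 22.3, 24.6 and 22.6 CPM in control and 24.0, 20.3 and 23.0 CPM in siRBM3. The groups overlapped, with a log2 fold change of -0.05 (SE 0.12) and an FDR by edgeR of 0.906. Of its exon length, 13.2% lies opposite to ENSG00000270175, which had 5 to 15 counts in a library. DICER1 relative to XPO5, the genes of neighbouring steps with opposite signs, had a ratio of CPM of 0.528, 0.611 and 0.547 in control and of 1.14, 0.764 and 1.02 in siRBM3. These ratios did not overlap between the groups. The pair was chosen after the values were seen, so no test is given.

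**Figure D2:**
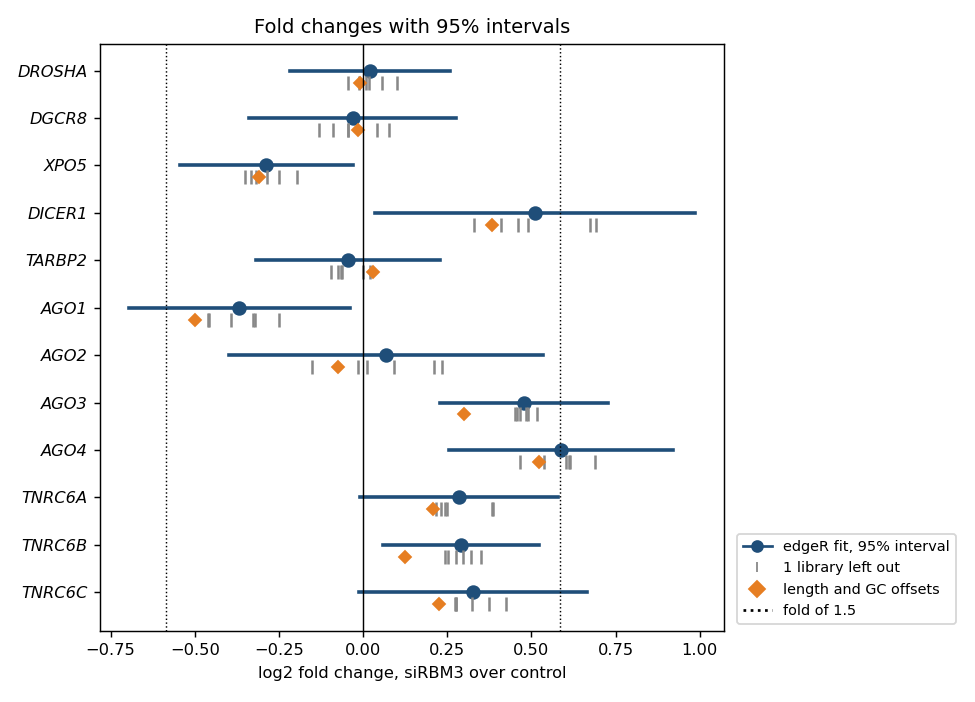
Log2 fold change of siRBM3 over control (horizontal axis) for the 10 members and for AGO4 and TNRC6C, as a point with its 95% interval from edgeR. Grey ticks give the value with 1 library left out, diamonds the value with offsets for gene length and GC content, and dotted lines a fold of 1.5 in either direction. DICER1, AGO3, AGO4 and TNRC6B have intervals wholly above 0, AGO1 and XPO5 wholly below, and the ticks of AGO2 fall on both sides of 0.

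The Argonaute messages had values of both signs. AGO3 was higher and AGO1 lower in the siRBM3 libraries, each without overlap of the groups, and AGO2 overlapped. Argonautes bind the small RNA and carry it to its target, and AGO1, AGO3 and AGO4 lie next to each other on the plus strand of chromosome 1.

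AGO1 (chromosome 1, 36335409-36396133, GRCh37) was at 37.05, 30.91 and 27.94 CPM in control and at 23.15, 27.93 and 23.28 CPM in siRBM3. All siRBM3 libraries were below all control libraries, but siRBM3 replicate 4 and control replicate 5 were nearly equal. The mean was 32.0 ± 4.65 CPM (SD, n = 3) in control and 24.8 ± 2.72 CPM in siRBM3, a log2 fold change of -0.37 (SE 0.14, 95% interval -0.70 to -0.04), with an unadjusted p of 0.0324 and an FDR of 0.329 by edgeR. Without control replicate 1 the value was -0.25 and the unadjusted edgeR p was 0.105. ENSG00000271914, opposite to 2.82% of the exon length, had 0 to 1 counts in a library.

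AGO3 (chromosome 1, 36396319-36538101, GRCh37), which starts 185 bases beyond the end of AGO1, had the smallest p of the members. It was at 19.5, 19.3 and 18.6 CPM in control and at 27.6, 25.3 and 27.1 CPM in siRBM3. The groups were far apart relative to their spread, at 19.1 ± 0.47 and 26.6 ± 1.21 CPM (SD, n = 3). The fitted fold change was 1.39 (95% interval 1.17 to 1.66), a log2 value of 0.48 with an SE of 0.11. Its unadjusted p was 0.0021 and its FDR 0.152 by edgeR, the adjusted p by DESeq2 was 0.0112, and over all alternatives the adjusted p went from 0.0112 to 0.400, so that it passed neither threshold of the call. Leaving out any library moved the log2 fold change only between 0.45 and 0.52. With offsets for gene length and GC content it was 0.30 (SE 0.11). ENSG00000271554, opposite to 0.407% of the exon length, had 0 to 2 counts in a library.

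AGO4 (chromosome 1, 36273617-36323491, GRCh37), not a member, was at 16.0, 14.4 and 16.1 CPM in control and at 22.9, 19.99 and 27.1 CPM in siRBM3. The siRBM3 libraries were all above the control libraries, as for AGO3. The log2 fold change was 0.59 (SE 0.15, 95% interval 0.25 to 0.92), with an unadjusted p of 0.0034 and an FDR of 0.170 by edgeR, and 0.0224 by DESeq2. Thus AGO1, between AGO4 and AGO3 on the chromosome, was the one of the cluster with a negative value. The ratio of AGO3 to AGO1 in CPM was 0.527, 0.624 and 0.666 in control and 1.19, 0.905 and 1.16 in siRBM3, with no overlap, and that of AGO4 to AGO1 was 0.433, 0.465 and 0.577 in control and 0.987, 0.716 and 1.16 in siRBM3. These ratios within a library do not depend on the scaling between libraries, and they were formed after the signs were known.

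AGO2, the Argonaute with well-known cutting activity, was at 29.6, 38.0 and 28.3 CPM in control and at 42.8, 25.3 and 32.2 CPM in siRBM3. The spread within each group was larger than the difference of the means, and both the lowest and the highest library were siRBM3. The log2 fold change was 0.07 (SE 0.20, 95% interval -0.40 to 0.53), the FDR by edgeR was 0.920, and without siRBM3 replicate 3 the value was -0.15. ENSG00000279766, which shares 0.297% of its exon length on the same strand, was not analysed here.

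As shares of the summed AGO1 to AGO4 level, in counts per kilobase of exon, AGO1 was at 34.8%, 29.5% and 29.1% in control and at 18.9%, 26.6% and 19.2% in siRBM3. The share of AGO1 was thus lower in every siRBM3 library. AGO4 was at 28.8% ± 2.91 (SD, n = 3) in control and 37.9% ± 3.89 in siRBM3, AGO3 at 12.4% ± 0.40 and 15.3% ± 0.64, and AGO2 at 27.7% ± 4.01 and 25.3% ± 5.01. The AGO3 and AGO4 shares did not overlap between the groups and those of AGO2 did. The size of a share depends on the length used: per kilobase of coding sequence, AGO4 held 16.4% and AGO2 33.7% in control. The sum of the 4 genes in CPM was 98.6 ± 6.59 in control and 108 ± 9.06 in siRBM3, with overlap of the groups.

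**Figure D3:**
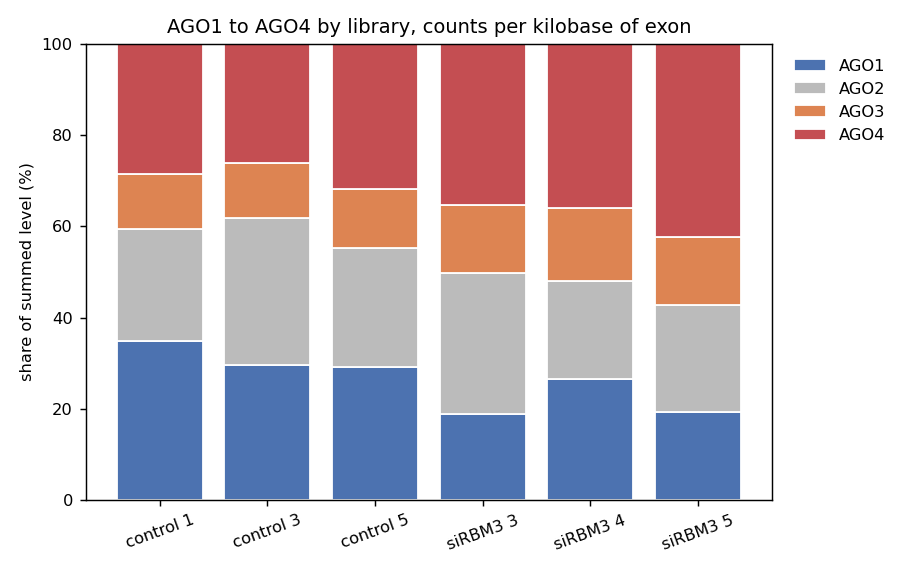
Share of AGO1, AGO2, AGO3 and AGO4 in their summed level (vertical axis, percent, counts per kilobase of exon) in each of the 6 libraries, stacked to 100%. The AGO1 part is 29.1% to 34.8% in the control libraries and 18.9% to 26.6% in the siRBM3 libraries.

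The GW182 genes had higher means in siRBM3, and TNRC6B was the only one of the 3 at an unadjusted edgeR p under 0.05. TNRC6B lost this with offsets for length and GC content and with libraries scaled by their total only. The same was true without control replicate 5, siRBM3 replicate 3 or siRBM3 replicate 5. TNRC6A, on chromosome 16 at 24621530-24838953 (GRCh37, plus strand), was at 58.8, 71.6 and 59.8 CPM in control and at 84.4, 66.3 and 81.1 CPM in siRBM3. The groups overlapped through control replicate 3 and siRBM3 replicate 4, with a log2 fold change of 0.29 (SE 0.13, 95% interval -0.01 to 0.58) and an FDR of 0.394 by edgeR.

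TNRC6B, on chromosome 22 at 40440821-40731812 (GRCh37, plus strand), was at 52.6, 54.1 and 49.2 CPM in control and at 64.8, 58.2 and 67.7 CPM in siRBM3. All siRBM3 libraries were above all control libraries. Its mean was 52.0 ± 2.53 CPM (SD, n = 3) in control and 63.6 ± 4.86 CPM in siRBM3, a log2 fold change of 0.29 (SE 0.10, 95% interval 0.06 to 0.52) with an unadjusted p of 0.0193 and an FDR of 0.280 by edgeR. With offsets for length and GC content the value was 0.13 (SE 0.08) and the unadjusted edgeR p was 0.176. Leaving out 1 library gave values from 0.24 to 0.35.

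TNRC6C, not a member, was at 10.8, 11.5 and 10.1 CPM in control and at 14.5, 11.6 and 14.5 CPM in siRBM3, with the lowest siRBM3 library just above the highest control library. Its log2 fold change was 0.33 (SE 0.15) and its FDR by edgeR 0.398. Per kilobase of exon, TNRC6A held 58.0% ± 1.95 (SD, n = 3) of the summed TNRC6 level in control and 57.8% ± 1.28 in siRBM3, TNRC6B 30.9% ± 1.57 and 30.9% in siRBM3, and TNRC6C 11.05% ± 0.40 and 11.3% ± 0.20. The make-up of this family overlapped between the groups for all 3 genes, while its sum went from 126 ± 9.72 to 154 ± 15.8 CPM, with the groups overlapping.

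In control cells the members differed by more than 10 times in level per kilobase of exon. The lengths are of all exons of a gene in GENCODE v44, whereas the annotation used for counting was not given. The lengths may therefore include exons that were not counted, and the part of this in the order was not tested. DROSHA was the most abundant, at 10.7 ± 1.07 CPM per kilobase (SD, n = 3), and its lowest library was above the highest library of XPO5, the next in order. XPO5 at 6.67, DGCR8 at 5.93, TARBP2 at 5.66 and TNRC6A at 4.89 CPM per kilobase followed, and the control libraries of each overlapped those of its neighbour in the order. TNRC6B at 2.60, AGO1 at 2.28 and AGO2 at 2.02 CPM per kilobase formed a further run of overlapping neighbours, separated from TNRC6A above and from DICER1 below. DICER1 at 1.44 and AGO3 at 0.904 CPM per kilobase were lowest and separated from each other. The exon lengths of DICER1 and AGO3 include long 3′ UTRs, and per kilobase of coding sequence the order began with DROSHA, TARBP2 and DGCR8 and ended with AGO3 and DICER1. On that scale the levels were closer, from 20.1 ± 2.02 CPM per coding kilobase for DROSHA (SD, n = 3) and 19.1 for TARBP2 to 5.37 ± 1.02 for DICER1.

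**Figure D4:**
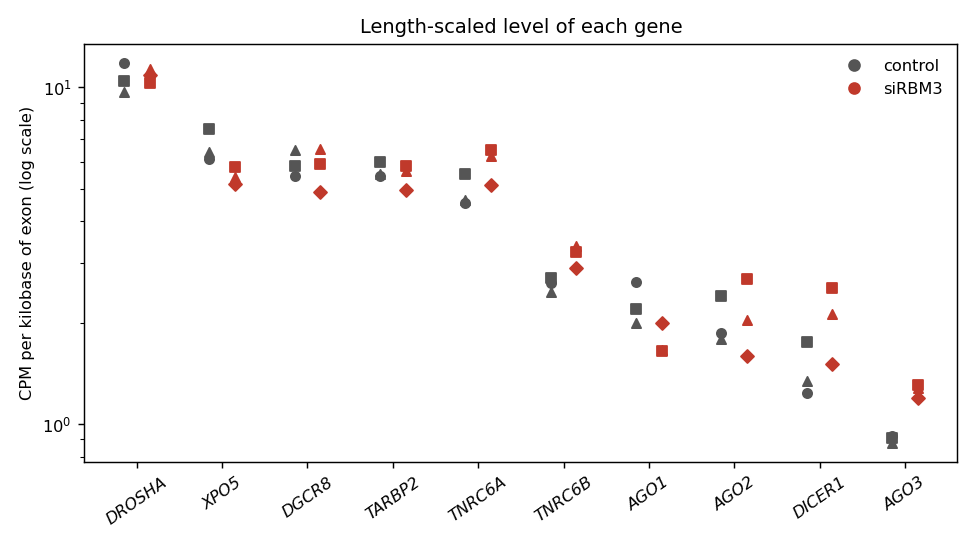
Level of each member in CPM per kilobase of exon (vertical axis, log scale) in the 3 control and 3 siRBM3 libraries, ordered by the control mean from left to right. DROSHA is highest at 10.7 and AGO3 lowest at 0.904 CPM per kilobase in control.

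Length went along with direction over all genes. When the tested genes with annotated exons were divided into 5 equal groups by exon length, the median log2 fold change was -0.04 in the shortest and 0.05 in the longest group, which starts at 8689 bases, and 44.2% and 60.8% of the genes had values above 0. Of the 10 members, 6 lie in the longest group: DICER1, AGO1, AGO2, AGO3, TNRC6A and TNRC6B. AGO1 had a negative value, and with offsets for length and GC content it was -0.50 (SE 0.15), with an unadjusted edgeR p of 0.0107. DICER1 with the same offsets was at 0.38 (SE 0.16), and XPO5, outside that group, at -0.31 (SE 0.11). The part of length in the values of the members beyond this fit was not tested.

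The level of DICER1 over the 6 libraries was followed most closely by RIC1, ZBTB37, BDP1, ANKAR and CEP85L, with Pearson correlations of log2 CPM from 0.991 to 0.999. The libraries were of both groups and share their depth and scaling, and 308 of 15098 other tested genes had a correlation above 0.9, so the nearness of any one of them is not particular to it. Of the members, TNRC6A followed DICER1 most closely (r = 0.99), and AGO1 ran opposite to it (r = -0.82). In DICER1, TNRC6A and AGO2, and also in XPO5 and TARBP2, the library with replicate number 3 was the highest in both groups. How many of all tested genes had this order was not counted.

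The other genes of the pathway came from lists chosen by function, with earlier results of these data known. They held no gene called by edgeR, and 123 of the 135 listed genes were tested. Of the 30 tested factors of microRNA maturation, such as helicases and terminal uridylyl transferases, 15 had positive and 15 negative values, with a median log2 fold change of -0.01. An unadjusted edgeR p under 0.05 was found for 2 in each direction. DDX17, a helicase of the Microprocessor, was at 0.32 (SE 0.12) and TUT7, which adds uridine to precursors, at 0.22 (SE 0.10). KHSRP, which binds terminal loops and helps maturation, was at -0.28 (SE 0.09), and ADARB1, an adenosine deaminase of double-stranded RNA, at -0.33 (SE 0.11). KHSRP went from 346, 317 and 309 CPM in control to 252, 270 and 279 CPM in siRBM3, without overlap.

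Among the 23 tested genes of RISC loading and its partners, which include chaperones, 15 had negative values and the median was -0.09. MOV10, a helicase found with Argonaute, had the smallest p of this list. It was at 211, 187 and 197 CPM in control and at 109, 135 and 143 CPM in siRBM3, so that the groups were well apart. The log2 fold change was -0.62 (SE 0.12), and the adjusted p was 0.110 by edgeR and 0.00367 by DESeq2, which called it, with a range of 6.39e-05 to 0.360 over all alternatives. HSPA4 at -0.20 (SE 0.09) and AJUBA at -0.50 (SE 0.24) followed by p, and neither was below an unadjusted p of 0.05 in the edgeR test.

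Downstream of the GW182 proteins, 23 genes of deadenylation and decapping were tested, with a median of 0.06, 14 positive values, and 3 genes in each direction at an unadjusted p under 0.05 in the edgeR test. CNOT8, a deadenylase of the CCR4-NOT complex, was at 85.3, 96.8 and 91.7 CPM in control and at 51.2, 70.0 and 53.5 CPM in siRBM3. Its log2 fold change was -0.65 (SE 0.13), with an adjusted p of 0.129 by edgeR and 0.00653 by DESeq2, which called it, and a range of 9.94e-05 to 0.394 over all alternatives. The deadenylases CNOT6 and CNOT6L had the opposite sign, at 0.39 (SE 0.10) and 0.30 (SE 0.12). The decapping enzyme DCP2 was at 0.51 (SE 0.13), with 38.2, 52.8 and 49.5 CPM in control and 67.4, 64.8 and 68.1 CPM in siRBM3. CNOT10, a subunit of the CCR4-NOT complex, was at -0.36 (SE 0.13), and LSM14A, a decapping factor, at -0.23 (SE 0.09). CNOT6L and LSM14A were named after their values were seen, to complete these counts.

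Sensors and binders of double-stranded RNA, which meet an siRNA or its longer relatives, had the lowest median, at -0.26 over 15 tested genes, of which 12 had negative values. OASL, an interferon-induced gene of the oligoadenylate synthetase family, was at 38.0, 38.4 and 51.3 CPM in control and at 17.2, 23.0 and 22.8 CPM in siRBM3. Its log2 fold change was -1.02 (SE 0.17), with an adjusted p of 0.0851 by edgeR and 5.21e-05 by DESeq2, which called it, and a range of 6.98e-09 to 0.341 over all alternatives. OAS2 at -0.97 (SE 0.39), OAS3 at -0.74 (SE 0.28), IFIH1 at -0.57 (SE 0.25) and STAU1 at -0.26 (SE 0.09) made up, with OASL, the 5 genes that were lower at an unadjusted p under 0.05. Control replicate 5 was the highest library for OASL, OAS2, OAS3 and IFIH1, at 127 CPM for OAS2 against 36.6 and 67.0 CPM in the other control libraries. It was also the highest for OAS1, RIGI, DHX58 and EIF2AK2, but not for the rest of the list. Without control replicate 5, OAS2 was at -0.40, OAS3 at -0.42 and IFIH1 at -0.28, and OASL, with 1 library left out, at -1.10 to -0.87. On leaving out 1 library, OAS1 ranged from -1.04 to -0.20 and RIGI from -0.67 to -0.20. DHX58 ranged from -0.54 to -0.05 and EIF2AK2 from -0.27 to -0.03. OAS2 and IFIH1 were named after their values were seen, to complete the count, and OAS1, RIGI, DHX58 and EIF2AK2 for the order of their libraries.

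**Figure D5:**
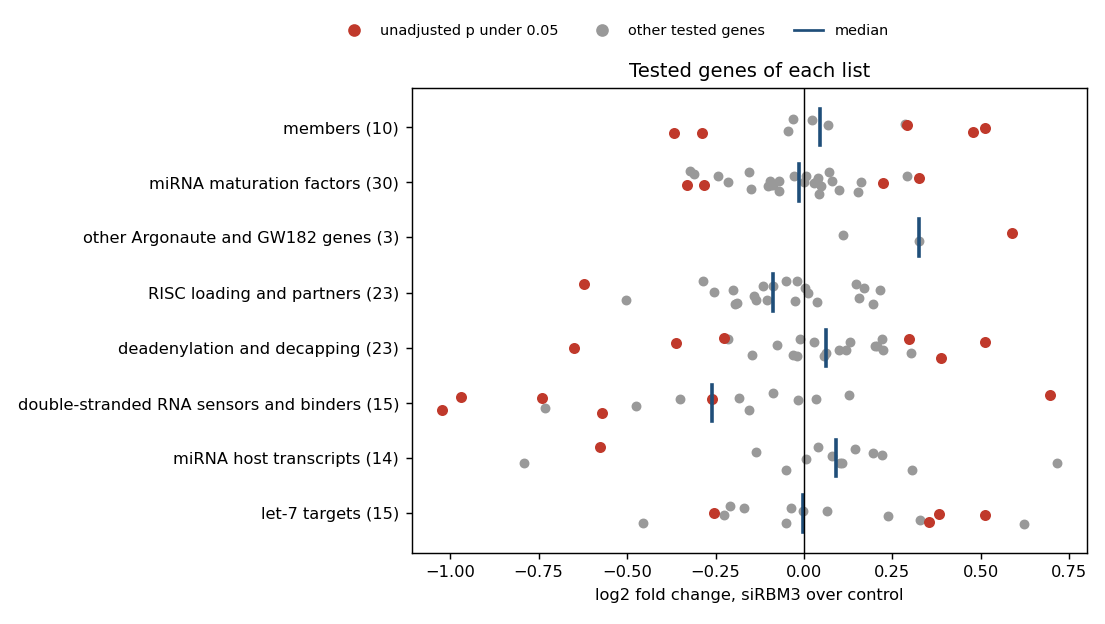
Log2 fold change of siRBM3 over control (horizontal axis) of each tested gene in the members and the 7 other lists, with the number tested in brackets, the median as a bar and genes at an unadjusted p under 0.05 in red. The medians lie between -0.26 for sensors and binders of double-stranded RNA and 0.33 for the 3 tested genes of the other Argonaute and GW182 list.

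The products and targets of the pathway were seen only through longer transcripts. Of 14 tested host transcripts of microRNAs, 10 had positive values, with a median of 0.09, and MIR503HG at -0.58 (SE 0.25) was the 1 gene at an unadjusted p under 0.05 in the edgeR test. MIR155HG at -0.79 (SE 0.37), MIR181A2HG at 0.71 (SE 0.36) and DLEU2 at 0.31 (SE 0.17) followed. Of 15 tested targets of let-7, a list that also holds DICER1, 7 had positive values, with a median of -0.0041, with 3 positive and 1 negative value at this level. The higher ones included DICER1 itself and NRAS at 0.38 (SE 0.10). NRAS was at 102, 110 and 104 CPM in control and at 153, 134 and 125 CPM in siRBM3, without overlap of the groups. MYC, lower, was at -0.26 (SE 0.11), or -0.30 to -0.16 with 1 library left out. The 3 known hosts of miR-103 and miR-107, which were picked after these results were seen, were at 0.28 (SE 0.24) for PANK1, -0.24 (SE 0.09) for PANK2 and -0.02 (SE 0.13) for PANK3.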

How the data were processed

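RNA from T24 cells was sequenced in 6 libraries, 3 control and 3 siRBM3, grouped by the labels. The authors used STAR (alignment to GRCh37), Picard (marking of duplicates) and featureCounts (reads per gene). The deposited values are whole-number counts per Ensembl gene, not normalized, and all columns were used. Which annotation and strand setting the counting used, and whether duplicates were counted, was not given in the sources used here. Overlapping and antisense genes are therefore named beside the members. No pair of libraries within a group agreed within sampling noise (chi-square per degree of freedom 27.7 to 141).

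Genes were kept by filterByExpr (minimum count 10, minimum total 15), scaled by TMM and tested with the quasi-likelihood method of edgeR 4.0.16, with Benjamini-Hochberg adjustment over all 15099 genes. The call required an FDR below 0.01 with a fold change of 1.5 or more. DESeq2 1.42.0, limma-voom (limma 3.58.1), other scalings and filters, each library left out and the replicate number as a block were alternatives. Offsets for gene length and GC content, available for 97.7% of tested genes, were added after the data were seen. R 4.3.3 and Python 3.11.15 were used. Gene positions, lengths and UTRs are from GENCODE v44 mapped to GRCh37, which placed 55665 of 63677 identifiers.

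On simulated data, 200 genes were changed, of which 108 had a log2 change of 1 and 92 of 2. EdgeR recovered 86.1% of the former and 100% of the latter, with 1 unchanged gene called. The changes were placed only in genes with ample counts, and the spread followed the fitted trend rather than each gene. This recovery therefore does not carry over to the real libraries, where edgeR called 0 of 15099 genes and RBM3 had an FDR of 0.0822. The offsets were tested on simulated data as well.

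The members and lists were chosen with earlier results of these data known. Named genes are RBM3, the members, AGO4 and TNRC6C, the 4 tested genes with the smallest edgeR p of each list, listed genes that were not tested, the 5 genes most like DICER1, and genes overlapping a member, with exceptions stated. Some listed genes are not reported here.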

Additional observations from a re-analysis of the deposited data

How the results depend on the processing

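Against 0 genes called higher and 0 lower, DESeq2 called 84 and 75, edgeR without a filter 127 and 152, and an FDR below 0.1 with no fold threshold 51 and 32. Leaving out 1 library gave 0 higher and 0 to 1 lower, the latter without control replicate 1. At an unadjusted p under 0.05, scaling by library size only left 611 genes higher. RBM3 was called by DESeq2 (-2.14) and without a filter (-2.13).

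With the replicate number as a block, 145 genes were called higher and 191 lower, an unadjusted p under 0.05 was found for 1714 higher and 2031 lower genes, and RBM3 (-2.57), DICER1 and AGO4 were called, the only alternative in which a member was. Only numbers 3 and 5 occur in both groups. Deviations from the group mean correlated at 0.53 for number 3 and 0.088 for number 5, and nothing else ties the libraries, so the block was not used. DICER1 was then at 0.59 with an edgeR FDR of 0.00868, against a range up to 0.666 over the alternatives. AGO4 was at 0.71 with an edgeR FDR of 0.00834, against a range up to 0.412.

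The sign reversed for DROSHA by library size only (-0.026), with offsets for length and GC content (-0.0086) and over single left-out libraries (-0.043 to 0.10). It reversed for DGCR8 with the replicate block (0.020) and left-out libraries (-0.13 to 0.077), for TARBP2 with the offsets (0.030) and left-out libraries (-0.096 to 0.022), for AGO2 with the offsets (-0.076) and left-out libraries (-0.15 to 0.23), and for PIWIL4 with the block (-0.49) and left-out libraries (-0.23 to 0.61). Their adjusted p was above 0.3 throughout.

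The median of the other Argonaute and GW182 list (0.33) was 0.28 by library size only, 0.46 with a mean of at least 20 counts, 0.43 with the block, 0.23 with the offsets and 0.27 to 0.54 with 1 library left out. That of the maturation factors was -0.064 by library size only. With the block, RISC loading was at -0.016 and deadenylation at 0.14. Leaving out 1 library gave -0.12 to -0.0074 for RISC loading and -0.030 to 0.17 for let-7 targets. In control, by coding length and by counts without length, AGO2 held 33.7% and 32.4% of the Argonaute level, AGO3 19.99% and 19.4%, and AGO4 16.4% and 15.8%. By counts, TNRC6A, TNRC6B and TNRC6C held 50.2%, 41.3% and 8.57%. The causes were not tested.

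Of 502 values of single genes, 475 kept their direction and their side of the call.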

Other observations

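The table holds 3043 rows of annotated microRNA hairpins, of which 97 had any count and 7 had at least 10 counts in a library, the highest being 64. Of the 15 rows of let-7, miR-98, miR-103 and miR-107 hairpins, 14 were at 0 in all libraries and the other reached 1 count. HNRNPA1, an abundant RNA-binding protein that also binds a microRNA hairpin, is listed at 0 in all 6 libraries, as are TSNAX, DCP1A and MIR600HG, and TUT1 was listed at or near 0. HNRNPA1 is used by nearly every cell, so no absence can be read from these rows.

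Among the let-7 targets, HMGA2, a chromatin protein chosen here after its values were seen, had the largest point estimate but did not pass an unadjusted p under 0.05 in the edgeR test. It was at 75.3, 140 and 111 CPM in control and at 234, 119 and 148 CPM in siRBM3, a log2 fold change of 0.62 (SE 0.29). The groups overlapped, and as for DICER1, the library with number 3 was the highest in each group. PIWIL4, the 1 tested gene of the germline Argonautes, averaged 0.62 CPM in control and 0.67 CPM in siRBM3, with a log2 fold change of 0.11 (SE 0.45), and DICER1-AS1, antisense to DICER1, had 21 to 45 counts a library.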
